A study of Mus musculus with 14 samples.

Results

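The 10 T-box genes examined here were Tbx1, Tbx2, Tbx3, Tbx4, Tbx5, Tbx6, Tbx15, Tbx18, Tbx20 and Tbx21, and their members were all sites of the methylation table whose gene symbol was 1 of these names, 199 of 75761 sites. Sites were found for 8 of the 10 genes, 63 for Tbx1, 40 for Tbx2, 34 for Tbx3, 26 for Tbx4, 15 each for Tbx5 and Tbx21, 4 for Tbx6 and 2 for Tbx15. Tbx18 and Tbx20 had 0 sites and could not be described. A site is a cytosine of a CpG, and its methylation level is the share of bisulfite reads that were methylated there, given below in percent. All 199 sites were at the cytosine of a CpG in the reference.

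T-box genes encode transcription factors that share a DNA-binding domain, the T-box, and they pattern organs in the embryo, with different members marking different parts of a limb, heart chamber or fat depot. Tbx3 is needed for the first mammary placodes and is a close relative of Tbx2, which represses transcription as Tbx3 does. Tbx15 and Tbx1 are known as genes whose expression differs between fat depots, Tbx4 and Tbx5 mark hindlimb and forelimb, and Tbx21 encodes T-bet, the factor that directs T helper 1 cells.

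Mammary adipose tissue was taken from the fat pad contralateral to the tumor in 14 wild-type female C57BL/6N mice (C57BL/6NCrl in the study's methods), bought at 8 weeks of age. CON-LFD mice (n = 3) ate a low-fat diet (10% of calories as fat) throughout, and all others ate a high-fat diet (60%) for 15 weeks. DIO-HFD mice (n = 4) then stayed on the high-fat diet, DIO-LFD mice (n = 3) changed to the low-fat diet, and DIO-VSG mice (n = 4) received vertical sleeve gastrectomy and the low-fat diet. Gastrectomy and the change of diet therefore cannot be told apart in DIO-VSG minus DIO-HFD. Every mouse without gastrectomy had a sham procedure, and E0771 mammary cancer cells were injected into the 4th fat pad of all mice 7 weeks after surgery, 4 weeks before tissue was taken, so that every group, controls included, carried a tumor on the other side. The labels also list E0771 as the cell line, although the DNA came from the contralateral pad. The tissue was whole, and a different mixture of cells cannot be told apart from a different methylation level within 1 cell type. Of 8 adipocyte marker genes, Pparg and Cebpa had promoter sites (3 in all), and the mean of these was between 32.5% and 47.3% in all 14 mice, while Fabp4, Plin1, Lep, Cidec and Lpl had no site, so that the tissue label could not be checked against its defining markers.

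The libraries did not separate cleanly by label. DIO-HFD replicate 1 stood apart from the other DIO-HFD mice over the whole table, with a mean level of 66.2% over the 65610 tested sites (those with a standard deviation of the level of at least 0.05 across the 14 mice), against 57.2%, 57.6% and 57.6% in DIO-HFD replicates 2, 3 and 4. The other groups ran from 60.6% to 65.2%. On average the T-box sites went the other way. Their mean over 164 tested sites was 36.4% in DIO-HFD replicate 1 and 45.4%, 46.4% and 44.0% in replicates 2, 3 and 4, and the other 10 mice ran from 36.9% to 43.2%. Tbx1, Tbx2, Tbx3 and Tbx5 went the way of this mean. Tbx4, Tbx6 and Tbx21 went the same way as the whole table, with DIO-HFD replicate 1 above replicates 2, 3 and 4. Comparisons with DIO-HFD are therefore given with and without DIO-HFD replicate 1, with some exceptions. The differences and counts after centring, the counts by band of level, and the median differences and gene counts of the lists are given with all mice only. DIO-HFD replicate 1 was singled out from these same levels. P-values and counts without it show how far the results depend on 1 mouse and do not stand as tests. Depth is unknown because the table holds no read counts.

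T-box sites were less methylated than the table as a whole. Their median level was 31.9%, against 66.5% for all sites, and 93 of the 199 (46.7%) lay in a CpG island, against 23.8% of all sites. Promoters held 29 of the T-box sites. CCGG, the motif cut by MspI in making these libraries, contained 48 of the T-box sites (24.1%) and 32.7% of all sites. T-box sites within CCGG had a median level of 55.4% and those outside it 27.0%, whereas all sites had medians of 62.4% and 68.7%. At levels of 40 to 60%, the median SD of all sites was 5.56 percentage points within CCGG and 10.4 outside it. For T-box sites it was 6.21 and 8.42. The sites nearest to the start of Tbx1, Tbx3, Tbx5, Tbx6 and Tbx21, named below, lay within CCGG.

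The runs of sites on which the results turn are printed here from the reference genome, build GRCm38 (mm10), plus strand, 5′ to 3′, with the CpGs measured in capitals. The first 3 lie in the runs of Tbx3 and Tbx2 with the largest differences between DIO-VSG and DIO-HFD mice, and the last 3 are runs of Tbx5, Tbx6 and Tbx4 that were lower in DIO-HFD replicates 2, 3 and 4 than in every DIO-VSG mouse.
Tbx3 upstream run, chr5:119668767-119668975: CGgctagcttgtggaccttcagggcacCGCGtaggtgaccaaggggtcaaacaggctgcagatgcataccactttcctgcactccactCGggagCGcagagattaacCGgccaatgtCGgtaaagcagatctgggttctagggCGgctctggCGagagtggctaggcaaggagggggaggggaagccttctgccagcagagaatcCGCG
Tbx3 exon 7, chr5:119680672-119680795: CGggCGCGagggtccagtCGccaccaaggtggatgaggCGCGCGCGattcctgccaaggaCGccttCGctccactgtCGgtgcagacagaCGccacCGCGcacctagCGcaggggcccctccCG
Tbx2 exon 2, chr11:85834621-85834794: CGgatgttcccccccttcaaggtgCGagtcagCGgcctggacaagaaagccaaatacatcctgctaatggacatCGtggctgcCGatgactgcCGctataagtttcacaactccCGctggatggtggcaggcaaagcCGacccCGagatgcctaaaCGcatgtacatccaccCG
Tbx5 intron, chr5:119837428-119837462: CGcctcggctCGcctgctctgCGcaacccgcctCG
Tbx6 promoter, chr7:126781195-126781326: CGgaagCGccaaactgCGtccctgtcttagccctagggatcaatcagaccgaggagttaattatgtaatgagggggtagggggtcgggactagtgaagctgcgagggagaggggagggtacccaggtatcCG
Tbx4 downstream, chr11:85918232-85918257: CGcaactgcagCGtctgtCGctgcCG
The 124 bases of Tbx3 exon 7 hold 16 CpGs and the 174 bases of Tbx2 exon 2 hold 11, every one of them measured. The 132 bases of the Tbx6 promoter hold 7, of which 4 were measured. RefSeq promoter windows around the start (mm10) were matched for 6 of the 10 members, Tbx1 (2 windows), Tbx4, Tbx6, Tbx18, Tbx20 and Tbx21. None was matched for Tbx2, Tbx3, Tbx5 or Tbx15. Of the 7 promoters matched, 5 hold CCGG, against 52.8% of 32851 promoters. Neither the T-box half-site GGTGTGA nor its reverse complement TCACACC was found in these 7 windows, and 3.98% of all promoters hold it on either strand.

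In lean mice the genes fell into a wide range of levels. Averaged over the tested sites of each gene (both sites for Tbx15, neither of which was tested), the CON-LFD mean was 3.11% ± 0.933 (SD, n = 3) for Tbx15, 22.8% ± 1.95 for Tbx5, 29.0% ± 3.87 for Tbx2, 29.2% ± 4.27 for Tbx3, 39.6% ± 7.76 for Tbx6, 41.0% ± 2.17 for Tbx1, 57.4% ± 1.74 for Tbx4 and 72.2% ± 2.15 for Tbx21. Among neighbours in this order, Tbx2 and Tbx3, Tbx3 and Tbx6, and Tbx6 and Tbx1 overlapped over the 3 mice. The order compares different places in each gene, since each mean rests on the few fragments that were sequenced.

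Tbx3 (chr5:119670669-119684724, plus strand) had the largest difference between DIO-VSG and DIO-HFD mice of the T-box genes with lower levels in DIO-VSG mice. Its mean over 31 tested sites was 22.7% in DIO-HFD replicate 1 and 48.6%, 51.2% and 48.2% in replicates 2, 3 and 4. DIO-VSG mice had 26.2%, 25.9%, 26.7% and 26.9%, CON-LFD mice 27.7%, 25.9% and 34.02%, and DIO-LFD mice 25.8%, 37.9% and 31.7%. DIO-HFD replicates 2, 3 and 4 were thus above the 10 mice of the other groups, while DIO-HFD replicate 1 was below them all, so that the groups overlapped. The DIO-VSG mean was 26.4% ± 0.443 (SD, n = 4) and the DIO-HFD mean 42.7% ± 13.4 (SD, n = 4).

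**Figure D1:**
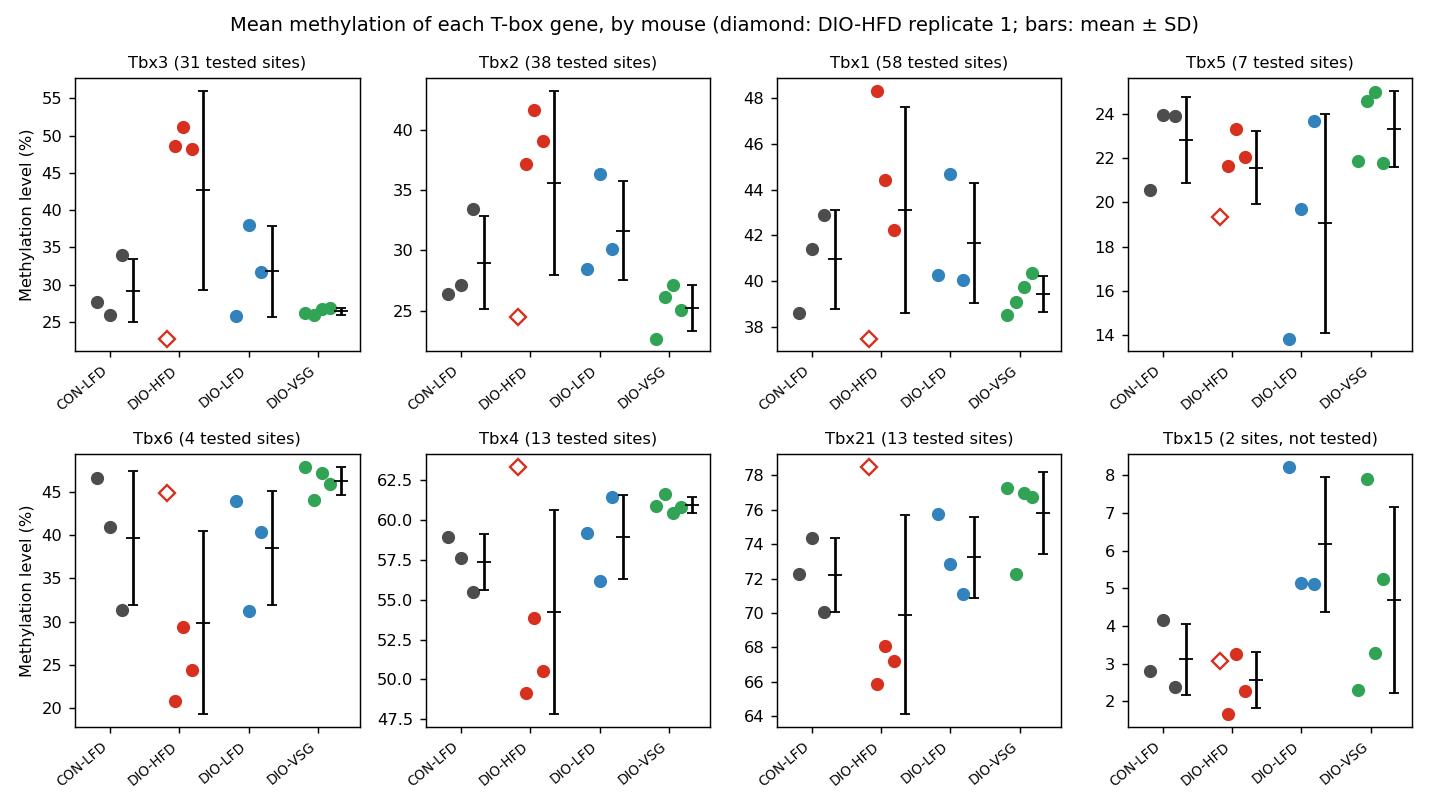
Mean methylation level in percent (vertical axis, its range set separately in each panel) of the tested sites of each T-box gene in each of the 14 mice, by group, with the group mean ± SD as a bar. DIO-HFD replicate 1 (open diamond) was at 22.7% for Tbx3 and the other DIO-HFD mice were between 48.2% and 51.2%, while for Tbx6 it was at 44.9% and they were between 20.8% and 29.3%.

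Fits were made on M, the log2 ratio of the methylated to the unmethylated share, in which a difference of 1 is a doubling of that ratio. Tbx3 was 1.04 lower in DIO-VSG than in DIO-HFD mice on this scale (SE 0.391, unadjusted p = 0.0203), and the adjusted p over 11811 genes was 0.169 with limma. Without DIO-HFD replicate 1 the difference was -1.51 (SE 0.223) and the adjusted p was 0.00187, against 0.110 to 0.367 under the other 20 alternatives. CON-LFD and DIO-LFD mice were lower than DIO-HFD mice by 13.5 and 10.9 percentage points at Tbx3, with adjusted p of 0.660 and 0.566, and of 0.0197 and 0.0190 without DIO-HFD replicate 1. For DIO-VSG minus DIO-LFD the Tbx3 difference in M was -0.37, with a limma adjusted p of 0.955, or 0.715 without DIO-HFD replicate 1.

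All 19 Tbx3 sites with an unadjusted p under 0.05 lay in 2 runs, 7 in a run before the gene and 12 in exon 7. These runs held 11 and 18 of the 31 tested Tbx3 sites, so few tested sites lay elsewhere. The upstream run of 11 sites, 1902 to 1695 bp before the transcript start of Tbx3 and within the span of the antisense gene Tbx3os1, was not in a CpG island. Its mean level was 30.5%, 56.3%, 54.8% and 50.9% in DIO-HFD replicates 1 to 4, 30.0%, 34.3%, 29.6% and 30.97% in DIO-VSG mice, 29.6%, 28.4% and 37.99% in CON-LFD mice, and 26.5%, 43.5% and 37.0% in DIO-LFD mice. Its outermost site, 1902 bp upstream and within CCGG, was the Tbx3 site with the smallest p and is named for that. It was at 71.5%, 81.4%, 78.3% and 77.4% in DIO-HFD mice and at 67.1%, 59.2%, 61.7% and 61.9% in DIO-VSG mice. The groups did not overlap there, DIO-HFD replicate 1 included. The difference in M was -1.003 (SE 0.256, unadjusted p = 0.00174), with an adjusted p of 0.150 over all tested sites, 0.00355 without DIO-HFD replicate 1, and 0.0740 to 0.345 under the other alternatives.

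The run in Tbx3 exon 7 lay in the coding sequence, 9656 to 10000 bp after the transcript start (chr5:119680672-119681017), with all 18 of its sites in a CpG island. Its mean was 17.4%, 44.8%, 50.3% and 47.7% in DIO-HFD replicates 1 to 4, and 23.7%, 20.04%, 24.2% and 23.7% in DIO-VSG mice. CON-LFD mice had 26.2%, 22.9% and 31.2%, and DIO-LFD mice 24.1%, 35.6% and 28.9%. DIO-HFD replicate 1 was the lowest of the 14 mice in this run. Of the 18 sites, 12 were lower in DIO-VSG mice at an unadjusted p under 0.05 and 0 higher, with 0 past the adjusted threshold, and 16 were past it without DIO-HFD replicate 1. Sites of 1 run lie on the same or neighbouring fragments and are not independent. Between the runs, the 3 intronic sites 1946 to 2442 bp after the start differed little among mice, with a run mean between 53.5% and 58.6%. The site nearest to the start, 662 bp upstream, was at 43.7% ± 4.53 in DIO-HFD and 41.7% ± 1.82 in DIO-VSG mice (SD, n = 4 each). It and all 3 intronic sites lay within CCGG, where sites of such levels varied less over the whole table.

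**Figure D2:**
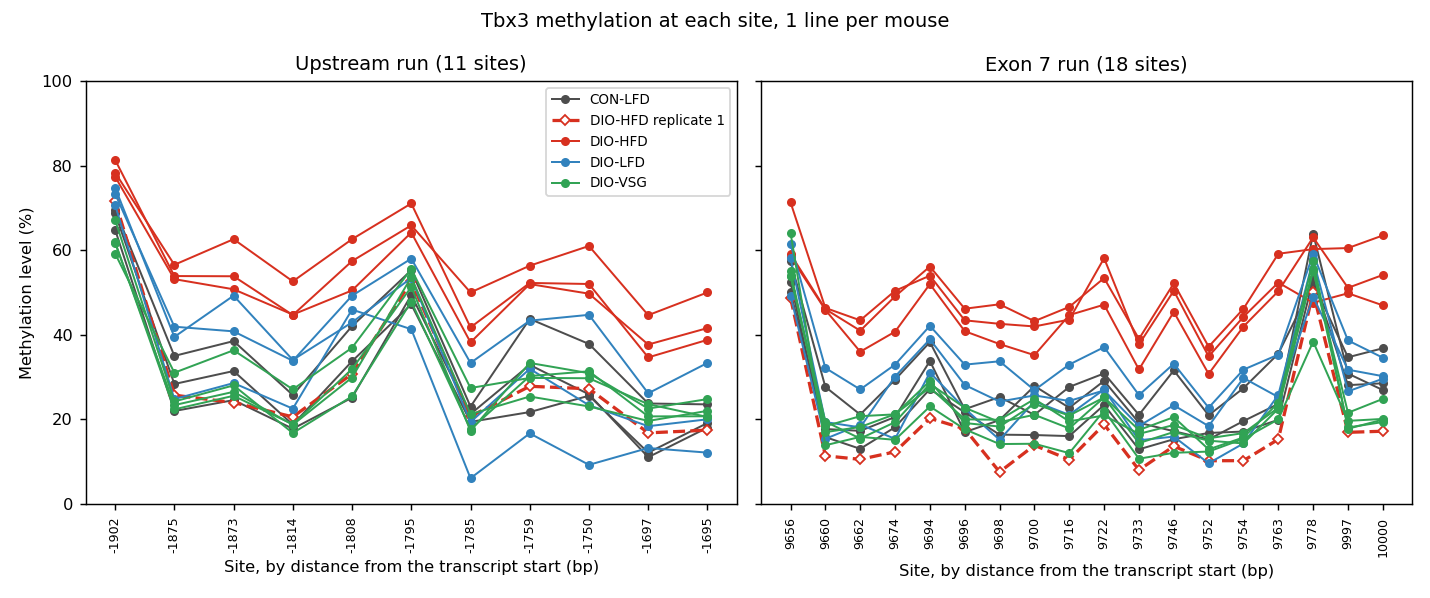
Methylation level in percent at each site of the Tbx3 upstream run (11 sites, left) and exon 7 run (18 sites, right), in order of distance from the transcript start in bp, with 1 line per mouse coloured by group. DIO-HFD replicates 2, 3 and 4 (solid red) lie above the other mice at most sites, and DIO-HFD replicate 1 (dashed, open diamonds) lies among or below the other groups, with run means of 30.5% and 17.4%.

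Tbx2 (chr11:85832551-85841948, plus strand) had its highest levels in the same 3 mice. Its mean over 38 tested sites was 24.5%, 37.2%, 41.7% and 39.1% in DIO-HFD replicates 1 to 4, and 22.7%, 26.1%, 27.1% and 25.1% in DIO-VSG mice. CON-LFD mice had 26.4%, 27.1% and 33.4%, and DIO-LFD mice 28.5%, 36.3% and 30.1%. DIO-HFD replicate 1 was below all CON-LFD and DIO-LFD mice. In M, the difference between DIO-VSG and DIO-HFD was -0.79 (SE 0.327, unadjusted p = 0.0317), with an adjusted p of 0.179, of 0.00552 without DIO-HFD replicate 1 and of 0.112 to 0.385 under the other alternatives.

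Of the 14 Tbx2 sites that were lower in DIO-VSG mice at an unadjusted p under 0.05, 8 were in a run over exon 2 and the intron before it and 5 in exon 7. In the run of 14 sites in exon 2 and the intron before it (chr11:85834423-85834794), DIO-HFD replicates 1 to 4 had 18.7%, 42.1%, 48.8% and 36.5%, and DIO-VSG mice 17.6%, 24.02%, 24.5% and 19.0%. Its site 2096 bp after the start had the smallest p in Tbx2, at 25%, 54.7%, 48.8% and 47.1% in DIO-HFD mice and 13.8%, 30.6%, 20.6% and 15% in DIO-VSG mice, and the groups overlapped. The difference in M was -1.63 (SE 0.444) with an adjusted p of 0.150, and 0.00315 without DIO-HFD replicate 1. The other alternatives gave 0.0740 to 0.345. In the run of 13 island sites of exon 7 (chr11:85840798-85840994) DIO-HFD mice had 17.3%, 28.9%, 30.1% and 40.6%, DIO-VSG mice 16.7%, 16.0%, 21.02% and 16.1%, and DIO-LFD mice 20.1%, 35.6% and 26.2%. The site nearest to the Tbx2 start, 48 bp upstream in a CpG island, was at 9.93% ± 6.73 in DIO-HFD and 9.58% ± 5.17 in DIO-VSG mice (SD, n = 4 each) and was not tested because of its small spread.

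Tbx1 (chr16:18580979-18590671, minus strand), a factor of the pharyngeal arches and a marker of beige fat cells, had the most sites of the family. The mean of its 58 tested sites was 37.5%, 48.3%, 44.4% and 42.2% in DIO-HFD replicates 1 to 4 and 38.5% to 40.4% in DIO-VSG mice, a difference in M of -0.30 (SE 0.209, adjusted p = 0.363). The adjusted p was 0.0617 without DIO-HFD replicate 1 and 0.241 to 0.668 under the other alternatives. CON-LFD mice had gene means of 38.6%, 41.4% and 42.9% and DIO-LFD mice 40.3%, 44.7% and 40.0%, which overlapped with those of DIO-HFD replicates 2, 3 and 4. In the run of 20 sites over exons 7 and 8 and their introns (chr16:18582690-18583258), 17 of them in a CpG island, DIO-HFD mice had 27.3%, 48.4%, 45.6% and 40.1%, DIO-VSG mice 31.4%, 29.8%, 32.3% and 29.6%, CON-LFD mice 27.6%, 33.0% and 35.02%, and DIO-LFD mice 31.6%, 31.6% and 30.2%. Replicates 2, 3 and 4 of DIO-HFD were above the 10 mice of the other groups, and replicate 1 was below them all.

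Elsewhere in Tbx1 some levels were higher, both nearer to the start and at 2 sites 8517 and 8744 bp after it (mean between 69.1% and 79.9% in all mice). The 3 intronic sites 1990 to 2235 bp after the start had a mean of 77.3%, 75.8%, 80.7% and 63.7% in DIO-HFD mice and 83.2%, 81.3%, 82.3% and 76.8% in DIO-VSG mice. The site with the smallest p in Tbx1 was 1 of these, 1990 bp after the start, in the comparison of CON-LFD with DIO-HFD. It was at 93.8%, 92.0% and 93.9% in CON-LFD mice and at 81.8%, 74.5%, 83.3% and 71.4% in DIO-HFD mice. The groups did not overlap, and the difference in M was 1.81 (SE 0.374, unadjusted p = 0.000315) with an adjusted p of 0.611, 0.0162 without DIO-HFD replicate 1 and 0.431 to 0.953 under the other alternatives. The site 52 bp before the Tbx1 start, in a CpG island, was at 50.0%, 60.8%, 62.5% and 69.7% in DIO-HFD replicates 1 to 4, at 59.2%, 64.2%, 55.1% and 52.9% in DIO-VSG mice, at 55.4%, 58.7% and 56.6% in CON-LFD mice and at 56.8%, 30.8% and 52.8% in DIO-LFD mice. DIO-HFD replicates 2, 3 and 4 were above all CON-LFD and DIO-LFD mice there and above 3 of the 4 DIO-VSG mice, and its adjusted p for DIO-VSG minus DIO-HFD was 0.779, or 0.427 without DIO-HFD replicate 1. The 18 island sites 1312 to 1952 bp before that start, which lie inside another Tbx1 transcript, had run means that overlapped among all 4 groups, between 38.6% and 54.0%.

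Tbx6 (chr7:126781483-126785560, plus strand), a factor of the presomitic mesoderm, was the member with the largest difference in the other direction. All 4 of its sites were in its promoter, 158 to 288 bp before the start. Their mean was 44.9%, 20.8%, 29.3% and 24.4% in DIO-HFD replicates 1 to 4 and 47.9%, 44.1%, 47.2% and 45.9% in DIO-VSG mice, with 46.7%, 41.0% and 31.3% in CON-LFD mice and 43.9%, 31.3% and 40.4% in DIO-LFD mice. DIO-HFD replicates 2, 3 and 4 were below the 10 mice of the other groups, and replicate 1 was among them. The difference in M between DIO-VSG and DIO-HFD was 1.51 (SE 0.487, unadjusted p = 0.00924), with an adjusted p of 0.161, of 0.00437 without DIO-HFD replicate 1 and of 0.110 to 0.365 under the other alternatives.

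The Tbx6 sites differed in level but not in direction. The site nearest to the start, at 158 bp, was at 72.3% ± 9.17 in DIO-HFD and 81.2% ± 4.04 in DIO-VSG mice (SD, n = 4 each). The site at 282 bp, named for the smallest p, was at 30.3%, 8.03%, 17.9% and 10.6% in DIO-HFD and 36.1%, 32.6%, 35.04% and 34.7% in DIO-VSG mice, and the groups did not overlap. Its difference in M was 1.51 (SE 0.446) with an adjusted p of 0.150, 0.00348 without DIO-HFD replicate 1, and 0.0740 to 0.345 under the other alternatives.

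Tbx4 (chr11:85886422-85916097, plus strand), the hindlimb factor, was lower in DIO-HFD replicates 2, 3 and 4 mainly behind the gene. Its mean over 13 tested sites was 63.4%, 49.1%, 53.9% and 50.5% in DIO-HFD mice and 60.9%, 61.6%, 60.4% and 60.8% in DIO-VSG mice. In M this was a difference of 0.50 (SE 0.225, unadjusted p = 0.0445), with an adjusted p of 0.195, of 0.00500 without DIO-HFD replicate 1 and of 0.137 to 0.951 under the other alternatives. The downstream run of 4 sites (chr11:85918232-85918257) was at 58.9%, 29.9%, 39.4% and 32.2% in DIO-HFD mice, 55.9%, 52.5%, 51.7% and 54.5% in DIO-VSG mice, and 47.0%, 46.5% and 46.6% in CON-LFD mice. Its site at 85918243, named for the smallest p in Tbx4, had a difference in M of 1.11 (SE 0.419, adjusted p = 0.157), and an adjusted p of 0.00527 without DIO-HFD replicate 1 and of 0.0851 to 0.358 under the other alternatives. The site nearest to the start, 71 bp after it in the untranslated part of exon 1, was between 3.45% and 10.8% in all 14 mice, and 13 of the 26 Tbx4 sites had too small a spread to be tested.

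Tbx21 (chr11:97098071-97115331, minus strand) had the highest mean of the family. Its mean over 13 tested sites was 78.5%, 65.9%, 68.1% and 67.2% in DIO-HFD replicates 1 to 4, 77.2%, 72.2%, 77.0% and 76.8% in DIO-VSG mice, 72.2%, 74.3% and 70.0% in CON-LFD mice, and 75.7%, 72.8% and 71.1% in DIO-LFD mice. DIO-HFD replicate 1 was the highest of the 14 mice. The difference in M between DIO-VSG and DIO-HFD was 0.48 (SE 0.248, adjusted p = 0.243), and the adjusted p was 0.00852 without DIO-HFD replicate 1 and 0.170 to 0.999 under the other alternatives. A run of 4 sites about 5 kb upstream, 5072 to 5179 bp before the start, was at 90.1%, 64.1%, 73.0% and 73.1% in DIO-HFD mice and 85.1%, 85.0%, 86.1% and 85.6% in DIO-VSG mice. Its site 5139 bp before the start, with the smallest p in Tbx21, differed by 0.91 in M (SE 0.409, adjusted p = 0.190, 0.00556 without DIO-HFD replicate 1, 0.124 to 0.428 under the other alternatives). At the site nearest to the start, 806 bp upstream, DIO-HFD mice had 61.2% ± 2.45 and DIO-VSG mice 65.0% ± 4.89 (SD, n = 4 each), with overlap.

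**Figure D3:**
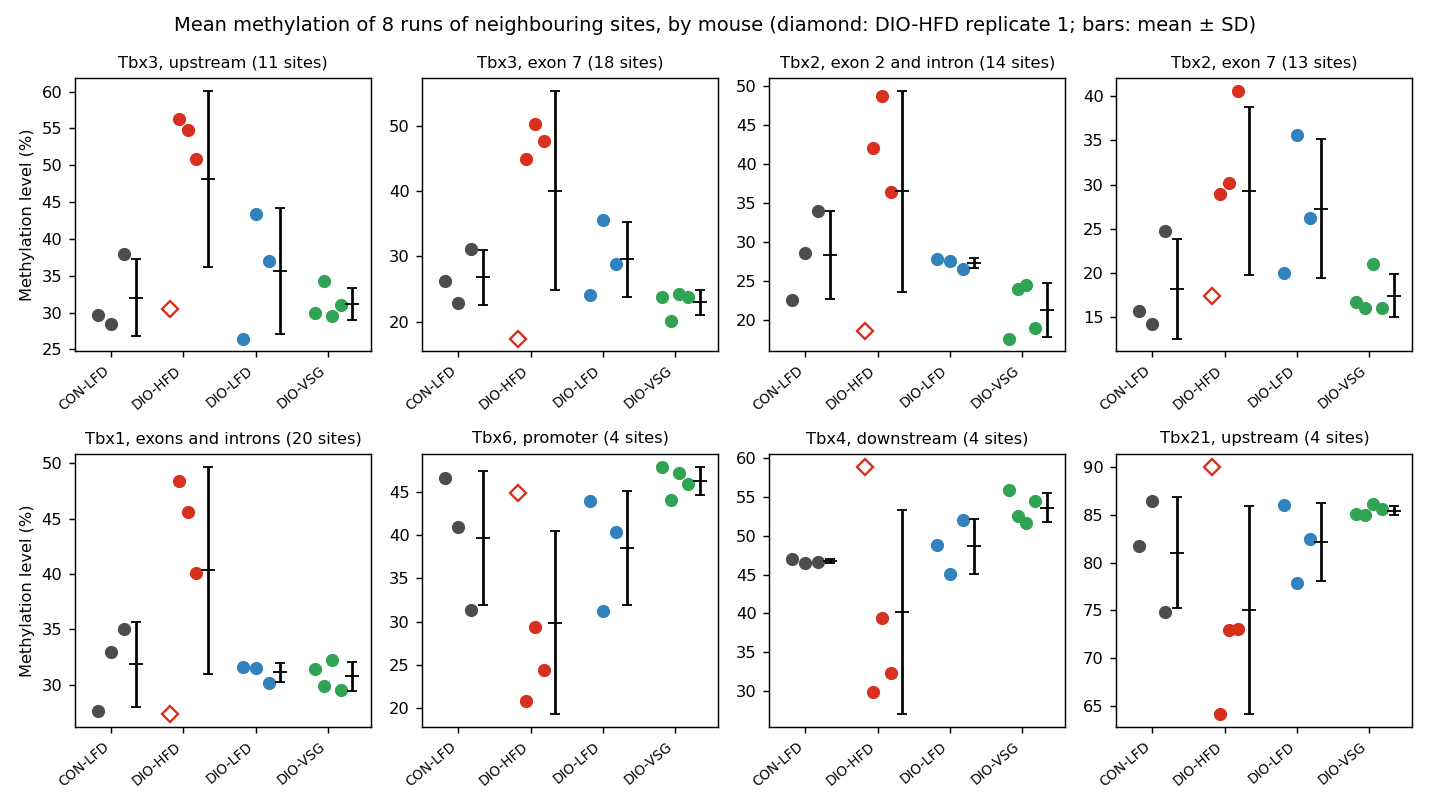
Mean methylation level in percent (vertical axis, its range set separately in each panel) of 8 runs of neighbouring sites in each of the 14 mice, by group, with the group mean ± SD as a bar. In the Tbx3, Tbx2 and Tbx1 runs DIO-HFD replicate 1 (open diamond) was below the other DIO-HFD mice, and in the Tbx6, Tbx4 and Tbx21 runs it was above the other DIO-HFD mice, at 44.9%, 58.9% and 90.1%.

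Tbx5 (chr5:119832668-119885219, plus strand), the forelimb and heart factor, had intronic sites only. Its mean over 7 tested sites was 21.6% ± 1.66 in DIO-HFD and 23.3% ± 1.73 in DIO-VSG mice (SD, n = 4 each), with 22.8% ± 1.95 in CON-LFD and 19.1% ± 4.94 in DIO-LFD mice (SD, n = 3 each). The adjusted p between DIO-VSG and DIO-HFD was 0.960, 0.472 without DIO-HFD replicate 1 and 0.530 to 0.996 under the other alternatives. The 4 sites 2767 to 2800 bp after the start averaged 35.3%, 25.7%, 27.6% and 28.8% in DIO-HFD mice and 36.03%, 40.6%, 40.6% and 39.2% in DIO-VSG mice. The site at 2788 bp, named for its p, was at 53.8%, 34.6%, 34.2% and 37.4% in DIO-HFD and 54.2%, 58.2%, 59.3% and 59.0% in DIO-VSG mice, without overlap. Its difference in M was 1.02 (SE 0.291, adjusted p = 0.150, 0.00186 without DIO-HFD replicate 1, 0.0740 to 0.345 under the other alternatives). The 9 sites 4616 to 5398 bp after the start were lower throughout, at 6.82%, 19.3%, 21.8% and 15.4% in DIO-HFD and 9.60%, 12.3%, 12.2% and 10.1% in DIO-VSG mice. The site nearest to the start, at 638 bp, was between 38.4% and 48.6% in all mice.

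Tbx15 (chr3:99240381-99354259, plus strand) had the lowest mean of the family. Its 2 sites lay in a CpG island within the span of the gene, 12381 and 12267 bp before the transcript start used by the table. Their mean was between 1.66% and 3.26% in DIO-HFD mice, 2.38% and 4.17% in CON-LFD mice, 5.11% and 8.23% in DIO-LFD mice and 2.30% and 7.90% in DIO-VSG mice. Neither site met the minimum standard deviation, so no test was made. The nearer site was between 2.51% and 5.20% in DIO-HFD mice and at 16.5%, 6.45% and 8.33% in DIO-LFD mice.

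Counted over the family, 47 of the 164 tested sites had an unadjusted p under 0.05 for DIO-VSG minus DIO-HFD. Of these, 11 (6.71%) were higher and 36 (22.0%) lower in DIO-VSG mice, whereas over all 65610 tested sites 20.2% were higher and 4.85% lower. With limma's adjusted p under 0.05, 0 T-box sites passed, and 0.00305% of all sites did. The lower sites were 19 of 31 in Tbx3, 14 of 38 in Tbx2 and 3 of 58 in Tbx1. The higher sites were 5 of 13 in Tbx4, 3 of 4 in Tbx6, and 1 each in Tbx1, Tbx5 and Tbx21. When DIO-HFD replicate 1 was left out, 20 T-box sites were higher and 66 lower past the adjusted threshold, and so were 28.8% and 5.62% of all sites, with 27 of the 31 Tbx3 sites and 22 of the 38 Tbx2 sites among the lower ones.

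At the level of genes, 2 of 7 T-box genes (Tbx4 and Tbx6) were higher and 2 (Tbx2 and Tbx3) lower for DIO-VSG minus DIO-HFD at an unadjusted p under 0.05, beside 21.4% and 3.29% of all genes. With the adjusted p, 0 T-box genes passed, and 0% of all genes did. Leaving out DIO-HFD replicate 1, Tbx4, Tbx6 and Tbx21 were higher and Tbx2 and Tbx3 lower past the adjusted threshold, beside 27.3% and 2.89% of all genes.

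Over the whole table, the difference between DIO-VSG and DIO-HFD mice varied with the level of a site, so T-box sites were also set beside sites of like level. Between 20% and 40%, 27 of 61 T-box sites (44.3%) were lower in DIO-VSG mice at an unadjusted p under 0.05, beside 11.4% of 8488 sites, and the median difference was -15.9 percentage points, beside 2.02. Below 20% the median was -7.28 for 33 T-box sites and 1.09 for all 5055. Between 60% and 80%, however, the 23 T-box sites had a median difference of 6.75 percentage points, beside 9.10 for all sites. These medians without DIO-HFD replicate 1 were -22.4 beside 3.47, -11.2 beside 1.89, and 8.48 beside 12.5 percentage points, in the same order.

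**Figure D4:**
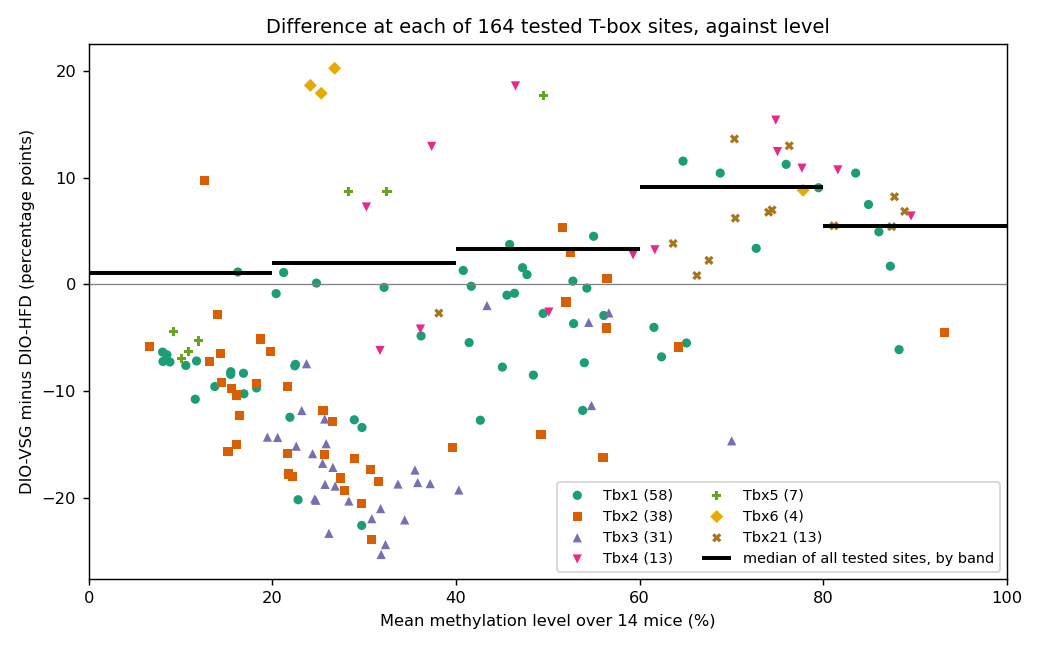
DIO-VSG minus DIO-HFD difference in percentage points (vertical axis) at each of the 164 tested T-box sites against the mean level over 14 mice in percent (horizontal axis), with symbols by gene and black lines for the median of all tested sites in each band of level. Tbx3 and Tbx2 sites between 20% and 40% lie far below the line at 2.02, and the Tbx6 sites and some Tbx4 and Tbx5 sites lie above it.

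The median tested site was 0.48 higher in M in DIO-VSG than in DIO-HFD mice, so the same differences were also taken after each mouse was centred on its median. The difference in M was then -1.53 for Tbx3, -1.28 for Tbx2, -0.79 for Tbx1 and 1.02 for Tbx6. Tbx4 came to 0.02 and Tbx21 to -0.001, and the direction of Tbx21 was lost. Centred, 4 T-box sites were higher and 66 lower at an unadjusted p under 0.05, beside 8.64% and 11.4% of all sites, and 0 passed the adjusted threshold.

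In lean CON-LFD mice compared with DIO-HFD mice, which were the same DIO-HFD mice as above, 3 T-box sites were higher (1.83%) and 13 lower (7.93%) at an unadjusted p under 0.05, beside 6% and 1.76% of all sites. The lower sites were 8 in Tbx3, 3 in Tbx2 and 2 in Tbx1. With limma's adjusted p, 0 T-box sites and 0% of all sites passed. Without DIO-HFD replicate 1, 4 were higher and 30 lower past the adjusted threshold, beside 9.67% and 2.3%, and 23 of the 30 were in Tbx3. Among the 7 genes, 0 passed an unadjusted p under 0.05 (beside 6.03% higher and 0.872% lower of all genes) or the adjusted threshold (0%), and without DIO-HFD replicate 1 Tbx6 was higher and Tbx2 and Tbx3 lower past the latter, beside 9.19% and 0.948%.

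In DIO-LFD mice compared with DIO-HFD mice, 4 T-box sites were higher (2.44%) and 13 lower (7.93%) at an unadjusted p under 0.05, beside 7.92% and 2.16% of all sites, or 1 and 16 when each mouse was centred on its median, beside 5.53% and 4.43%. The adjusted threshold was passed by 0 T-box sites and by 0.00305% of all sites. Without DIO-HFD replicate 1, 5 were higher and 34 lower past it, beside 12.1% and 2.42%. No gene of the 7 passed at an unadjusted p under 0.05 (7.36% of all genes were higher and 1.53% lower) or with the adjusted p (0% of all genes). Without DIO-HFD replicate 1, Tbx4 and Tbx6 were higher and Tbx3 was lower past the adjusted threshold, beside 11.7% and 1.15%.

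DIO-VSG and DIO-LFD mice were compared in the same model, in which DIO-HFD mice entered the estimate of the spread. Between DIO-VSG and DIO-LFD mice, 3 T-box sites were higher (1.83%) and 7 lower (4.27%) in DIO-VSG at an unadjusted p under 0.05, beside 2.42% and 1.55% of all sites, or 1 and 7 after centring, beside 1.75% and 2.9%. The adjusted threshold was passed by 0 T-box sites, beside 0.00305%. The lower sites were 5 in Tbx2 and 1 each in Tbx1 and Tbx3. With DIO-HFD replicate 1 left out of the model, 5 sites were higher and 21 lower at an unadjusted p under 0.05, beside 4.36% and 2.42%, and 0 passed the adjusted threshold. Tbx6 and Tbx2 had the largest gene differences, 0.56 and -0.56 in M (adjusted p = 0.955 for both), and no gene passed at an unadjusted p under 0.05 (3.28% and 1.57% of all genes) or with the adjusted p (0%). In the model without DIO-HFD replicate 1, Tbx2 alone of the 7 genes had an unadjusted p under 0.05, beside 5.33% of all genes higher and 2.18% lower, and its adjusted p was 0.660. Tbx2 was at 25.2% ± 1.90 in DIO-VSG (SD, n = 4) and 31.7% ± 4.14 in DIO-LFD mice (SD, n = 3).

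The promoter sites of 2 immune markers moved with these values. Of 7 such genes, Lat and Zap70, both of T cell receptor signaling, had promoter sites, 8 in all, and their mean level was 39.8%, 68.4%, 70.5% and 67.8% in DIO-HFD replicates 1 to 4, 41.1% to 45.3% in DIO-VSG mice, 45.5%, 49.0% and 62.3% in CON-LFD mice, and 43.7%, 58.9% and 55.7% in DIO-LFD mice. DIO-HFD replicates 2, 3 and 4, the highest here, were also the highest at Tbx3, Tbx2 and the Tbx1 run over exons 7 and 8, and the lowest at Tbx6. At the Tbx1 gene mean they overlapped with CON-LFD and DIO-LFD mice. The 2 promoter sites of mammary epithelial markers (Cdh1 and Krt5, 2 of 7 genes) ran from 40.8% to 46.1% in DIO-HFD and from 40.8% to 48.7% in DIO-VSG mice. For DIO-VSG minus DIO-HFD, however, 8 of all 26 tested sites of the immune markers were higher and 5 lower at an unadjusted p under 0.05, with a median difference in M of 0.94, the opposite direction to the promoter sites of Lat and Zap70. The epithelial markers had 1 higher and 2 lower of 10 and the adipocyte markers 0 of 4, beside the 20.2% and 4.85% of all sites. Leaving out DIO-HFD replicate 1, 18 and 6 of the immune, 2 and 3 of the epithelial and 0 of the adipocyte sites were higher and lower at this threshold, beside 37.5% and 7.39% of all sites. The adjusted threshold was then passed by 21, 3 and 0, beside 28.8% higher and 5.62% lower of all sites. Whether a different share of immune cells plays a part in the T-box values was not tested.

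The genes most like Tbx3 and Tbx1 over the 14 mice, by the mean absolute difference between the mean levels of all sites of each gene, were taken from 6939 genes with at least 3 sites. For Tbx3 they were Gm11523 and S1pr4, at 2.59 and 2.92 percentage points. S1pr4, a receptor for sphingosine 1-phosphate in lymphocytes, had 46.7% in DIO-HFD and 27.9% in DIO-VSG mice, where Tbx3 over all 34 sites had 43.9% and 28.9%. For Tbx1 they were Eln and Sp9, at 1.14 and 1.28 percentage points, and 17 genes lay within 2 points of Tbx1 but 0 within 2 points of Tbx3. Tbx15 had too few sites for this.

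Among the other T-box genes, sites were found for T, Tbr1, Eomes, Tbx10 and Tbx22 (5 of 8 symbols), and of 21 tested sites 4 were higher and 1 lower for DIO-VSG minus DIO-HFD at an unadjusted p under 0.05 (median difference in M 0.04), near the 20.2% and 4.85% of all sites. T, the founding member, had 68.8%, 57.3%, 58.7% and 57.2% in DIO-HFD and 65.1% to 72.8% in DIO-VSG mice. The Tbx10 site 355 bp after the start was at 84.3%, 71.2%, 66.3% and 67.7% in DIO-HFD mice and 88.4%, 84.5%, 84.8% and 87.8% in DIO-VSG mice, without overlap (difference in M 1.18, SE 0.335, adjusted p = 0.150, and 0.00213 without DIO-HFD replicate 1). The Tbx22 site 24322 bp upstream was at 77.0%, 85.7% and 89.5% in CON-LFD and 62.5%, 55.6%, 57.9% and 53.8% in DIO-HFD mice (adjusted p = 0.611, and 0.0234 without DIO-HFD replicate 1). The 3 tested sites of the antisense gene Tbx3os2 had a mean between 49.8% and 58.0% in all mice.

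Genes that act with T-box factors were counted from lists, beside the shares of all sites given above and a median difference in M of 0.48 over all tested sites. In the mammary placode and bud list (Wnt, Bmp, Fgf, Eda and parathyroid hormone-related signaling), 13 of 17 genes had sites, and of 142 tested sites 24 were higher and 4 lower for DIO-VSG minus DIO-HFD at an unadjusted p under 0.05 (median 0.32). The smallest p were at Pthlh, the parathyroid hormone-related ligand, and Bmpr1a, a BMP receptor. A site 355 bp before the start of Bmpr1a was at 100% in all 4 DIO-VSG mice and at 72.1%, 75.7%, 73.1% and 65.7% in DIO-HFD mice. It was at 95.7%, 66.3% and 100% in CON-LFD mice and at 95.2%, 65.5% and 100% in DIO-LFD mice (adjusted p = 0.150 for DIO-VSG minus DIO-HFD, and 0.01004 without DIO-HFD replicate 1). At a level of 100% or 0, M is set by the offset of 0.01, and the depth is unknown. The Pthlh site, 40125 bp upstream, was at 100% in all DIO-VSG mice and at 87.8% ± 8.55 in DIO-LFD mice (SD, n = 3), (adjusted p = 0.205 for DIO-VSG minus DIO-LFD, 0.293 when DIO-HFD replicate 1 was left out of the fit).

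In the list of fat depot and adipocyte identity (16 of 20 genes with sites), 1 of 105 tested sites was higher and 25 were lower for DIO-VSG minus DIO-HFD at an unadjusted p under 0.05 (median -0.23). In the fit of gene means, however, 1 of its 15 tested genes was higher and 1 lower at this threshold, beside 21.4% and 3.29% of all genes. Sites of 1 gene are not independent. At En1, a homeobox gene of the dermomyotome lineage, a site 1048 bp upstream was at 13.8%, 23.9%, 25.9% and 26.1% in DIO-HFD and 10.7%, 9.36%, 10.6% and 12.1% in DIO-VSG mice, without overlap (difference in M -1.17, SE 0.298, adjusted p = 0.150, and 0.00175 without DIO-HFD replicate 1). At Shox2, a homeobox gene of subcutaneous fat, an island site in an exon was listed at 0 in all 4 DIO-VSG mice and at 4.08%, 18.9%, 17.7% and 15% in DIO-HFD mice (adjusted p = 0.150, and 0.00716 without DIO-HFD replicate 1).

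The limb and heart list (13 of 15 genes with sites) had 8 sites higher and 4 lower of 87 (median 0.08). Fgf8, a signal of the limb ridge, had both of its smallest p, with a promoter site 460 bp upstream at 34.6%, 23.2%, 21.2% and 23.3% in DIO-HFD and 35.8%, 42.2%, 43.4% and 43.6% in DIO-VSG mice (adjusted p = 0.150, and 0.00224 without DIO-HFD replicate 1). The T helper 1 list had sites in 5 of 10 genes and, of 116 tested sites, 48 higher and 11 lower (median 1.02). Its most different sites were in the intron of Runx3, a partner of T-bet, where the site 3556 bp after the start was at 45.3%, 11.7%, 7.21% and 16.1% in DIO-HFD and 59.2%, 53.5%, 52.1% and 50.4% in DIO-VSG mice (adjusted p = 0.150, and 0.00100 without DIO-HFD replicate 1). In these 5 lists 0 sites passed the adjusted threshold in any of the 4 comparisons. Without DIO-HFD replicate 1, 5 of 21, 41 of 142, 32 of 105, 22 of 87 and 86 of 116 passed it between DIO-VSG and DIO-HFD. The order is that in which the lists are given, and both directions are counted. Of all sites, 28.8% were then higher and 5.62% lower past it. By gene means of all mice, 5, 13, 15, 12 and 5 genes of the lists were tested for DIO-VSG minus DIO-HFD. Of these, 2, 1, 1, 0 and 1 were higher and 0, 0, 1, 0 and 0 lower at an unadjusted p under 0.05. Among all genes the shares were 21.4% and 3.29%. In the other comparisons with DIO-HFD the same lists had, at an unadjusted p under 0.05, 1, 7, 2, 2 and 9 sites higher and 1, 3, 0, 3 and 5 lower in CON-LFD mice, beside 6% and 1.76% of all sites. In DIO-LFD mice they had 3, 13, 2, 6 and 18 higher and 0, 1, 1, 4 and 4 lower, beside 7.92% and 2.16%. These counts were, without DIO-HFD replicate 1, 3, 34, 6, 11 and 67 higher and 1, 3, 17, 8 and 10 lower in CON-LFD mice, beside 25.6% and 5.31% of all sites, and 6, 39, 6, 21 and 68 higher and 0, 2, 8, 10 and 9 lower in DIO-LFD mice, beside 27.2% and 5.43%. For DIO-VSG minus DIO-LFD the lists had 0, 3, 1, 1 and 1 higher and 2, 4, 10, 1 and 0 lower, beside 2.42% and 1.55% of all sites. In the model without DIO-HFD replicate 1 they had 1, 2, 1, 1 and 2 higher and 2, 3, 16, 3 and 1 lower, beside 4.36% and 2.42%.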

How the data were processed

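RRBS was measured in mammary adipose tissue of 14 mice. Per the study's methods and processing notes, the authors used Bismark v0.18.1 for alignment (mm10), samtools v1.5 for sorting and methylKit v1.10.0 for methylation calls, and they removed 2 outlier mice. The authors deposited the methylation level of each site and mouse as a fraction, without read counts. Groups came from the labels.

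A level b entered the fit as M = log2((b + 0.01)/(1 - b + 0.01)), provided that its standard deviation over the mice reached 0.05. All 4 groups shared 1 limma model (limma 3.58.1, R 4.3.3), made for sites and for the mean M of the tested sites of each gene. P-values were two-sided and Benjamini-Hochberg adjusted over all sites or genes, with a threshold of 0.05. The script was tested on simulated data. Distances and promoter and island flags are those of the table, and gene parts are from GENCODE M21. Runs join sites at most 500 bp apart. Named sites were the one nearest to the start and the one with the smallest p per gene, and up to 2 per list. Members and lists were chosen with earlier results of these data known. Alternatives changed the offset (0.1), the scale, the fit, the centring, the filter, the replicate block or the mice included.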

Additional observations from a re-analysis of the deposited data

Results flagged for a closer look

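In groups of 4 mice, 82 sets of values were examined for a mouse far from the other 3 (the gap to the nearest other mouse over the range of the group, against Dixon's 95% critical value). Chance gives about 1 in 20 such groups, or 4.1, and 6 were found, with the ratio in parentheses. DIO-HFD replicate 1 was the outlying mouse in 3 of them. Its Tbx3 gene mean was the lowest, at 22.7% against 48.2% to 51.2% (0.894). Its Tbx3 exon 7 run was the lowest, at 17.4% against 44.8% to 50.3% (0.833). Its Tbx5 site at 119837449 was the highest, at 53.8% against 34.2% to 37.4% (0.836).

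The other 3 were in DIO-VSG mice. The Tbx21 gene mean of replicate 2 was 72.2% against 76.8% to 77.2% (0.906). The Tbx2 exon 7 run of replicate 3 was 21.02% against 16.0% to 16.7% (0.861). The Tbx3 exon 7 run of replicate 2 was 20.04% against 23.7% to 24.2% (0.884). The cause of these values was not tested.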

How the results depend on the processing

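Without DIO-HFD replicate 1, the number of T-box sites past an adjusted p of 0.05 went from 0 to 34 (CON-LFD minus DIO-HFD), 39 (DIO-LFD minus DIO-HFD) and 86 (DIO-VSG minus DIO-HFD), and the number of genes from 0 to 3, 3 and 5. With any other mouse left out, and under every other setting, these counts were 0. Over the whole table without DIO-HFD replicate 1, 9.67%, 12.1% and 28.8% of sites were higher past this threshold and 2.3%, 2.42% and 5.62% lower. Of all genes, 9.19%, 11.7% and 27.3% were higher and 0.948%, 1.15% and 2.89% lower. Leaving out 1 mouse at a time, sites at an unadjusted p under 0.05 ran from 5 to 82 (CON-LFD), from 4 to 82 (DIO-LFD), from 20 to 98 (DIO-VSG) and from 2 to 26 (DIO-VSG minus DIO-LFD), and genes from 0 to 5, 0 to 6, 1 to 6 and 0 to 1. The highest values are those without DIO-HFD replicate 1. Of all sites, 25.6%, 27.2%, 37.5% and 4.36% were then higher and 5.31%, 5.43%, 7.39% and 2.42% lower, in the same order. With DIO-HFD replicate 1 kept, the highest were 24, 19, 54 and 17 sites, and 1, 0, 3 and 0 genes. Shares of all sites are not given for the other mice left out or for the offset, levels and 2-group fits below. The lowest site counts were those without CON-LFD replicate 1 (5), DIO-HFD replicate 2 (4 and 20) and DIO-LFD replicate 2 (2), and other mice moved a count by over 1.5 times too, to 7 without CON-LFD replicate 2, to 7 and 8 (CON-LFD), 7 (DIO-LFD) and 22 (DIO-VSG) without DIO-HFD replicates 2, 3 or 4, to 31 and 29 without DIO-VSG replicates 1 and 4, and for DIO-VSG minus DIO-LFD to 17 without DIO-LFD replicate 1 and to 4 and 5 without DIO-VSG replicates 1 and 3.

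For CON-LFD minus DIO-HFD the 16 sites at an unadjusted p under 0.05 became 26 with an offset of 0.1, 34 with levels in place of M and 7 in a fit of the 2 groups, and the 0 genes became 1 with the offset and 1 with levels. For DIO-LFD minus DIO-HFD the 17 sites became 5 in a fit of the 2 groups, and the 0 genes became 1 without the filter. In fits of the 2 groups the 4 genes of DIO-VSG minus DIO-HFD became 2, and the 0 genes of DIO-VSG minus DIO-LFD became 1. The cause was not tested.

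The Tbx5 gene difference of -0.03 in M was near 0, was -0.27 without DIO-HFD replicate 1 and changed sign with the offset (0.0167), with levels (0.0173 as a fraction), and without DIO-HFD replicates 2 (0.03), 3 (0.0823) and 4 (0.03), and without DIO-VSG replicates 1 (0.004) and 4 (0.07). Tbx21 changed sign when centred (-0.00114).

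Mice with the same replicate number did not deviate together in every pair (r between -0.0804 and 0.202), so the numbers were not taken as pairs. With the replicate block, 56 sites and 4 genes of DIO-VSG minus DIO-HFD had an unadjusted p under 0.05, 15, 17 and 13 sites in the other comparisons, and 0 passed the adjusted threshold. No coverage minimum could be tried, since read counts are not used here. The size of difference that 3 or 4 mice a group can show was not computed.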
